A study of Homo sapiens with 15 samples.

Results

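This comparison sets human myeloma tumours grown in mice and treated with bortezomib plus late elesclomol (delayed combination) against tumours treated with elesclomol alone. The 3 delayed combination and the 3 elesclomol libraries were taken by their labels, 6 of the 15 libraries of the series. Mice of the delayed combination received bortezomib at 0.25 mg/kg, and elesclomol at 25 mg/kg was begun 14 days after the animal entered the study. Mice of the elesclomol group received 25 mg/kg without that delay and no bortezomib. Bortezomib was injected intraperitoneally and elesclomol subcutaneously. The groups therefore differed both in bortezomib and in the start of elesclomol, and what each contributed cannot be told apart. Simultaneous combination, bortezomib and PBS (saline, by the protocol), with 3 libraries each, place the genes named here and share the estimate of spread in the fit. All mice were SCID-beige, a strain that lacks B and T cells and has impaired natural killer cells but keeps its own marrow. They carried MM.1S, an established human multiple myeloma line bearing fluorescent protein and luciferase reporters, after intravenous injection. Each group held 5 treated mice, and total RNA depleted of ribosomal RNA was sequenced from marrow flushed from the femurs at paralysis. The labels give limb paralysis or severe toxicity as the endpoint and do not say which mouse each library came from. The p-values measure the spread between these libraries.

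Bortezomib blocks the proteasome, on which plasma cells depend because they make and discard large amounts of secretory protein. Elesclomol carries copper into mitochondria, where FDX1 reduces it and where lipoylated enzymes and iron-sulfur proteins are known to be affected. RAS-ERK signalling, active in many myelomas, is read out by early transcription factors and by feedback inhibitors such as the dual-specificity phosphatases. FOXO factors, held out of the nucleus by growth factor signals through AKT, drive genes of protein breakdown and cell death.

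The deposited counts summed to 11060930 to 13161087 in the delayed combination libraries and to 6602596 to 7977375 in the elesclomol libraries, a mean depth ratio of 1.62 (exact two-sided permutation p = 0.1, the smallest that 3 against 3 libraries allow). Genes of mitochondrial DNA held 36.2% to 40.3% of the counts in the delayed combination libraries and 35.5% to 40.2% in the elesclomol libraries. All 11 myeloma plasma cell markers were tested, and they summed to 15060 to 16860 CPM in the delayed combination and 15090 to 16190 CPM in elesclomol. CPM are counts per 1e6 counts of a library, its total scaled with TMM factors. The libraries do not resolve cell types, so fewer cells of a type and less RNA per cell cannot be told apart. Elesclomol 1 stood apart. Its 18 erythroid markers summed to 637 CPM, against 32.8 to 61.6 CPM in the delayed combination libraries and 78.3 and 68.2 CPM in elesclomol 2 and 3. Its 17 granulocyte markers summed to 168 CPM, against 16.8 to 45.7 CPM in the delayed combination and 26.5 and 47.8 CPM in the other elesclomol libraries. HBA1 and GYPB of the erythroid list and CAMP, S100A8 and CEACAM8 of the granulocyte list were at 0 counts in all 6 libraries. The HBB gene, which encodes beta globin, stood at 15.9, 10.7 and 24.1 CPM in the delayed combination and at 286, 31.8 and 27.2 CPM in elesclomol. Delayed combination 2 stood apart in other ways. Its deviation from the mean correlated with the GC content of the genes (r = 0.32 across genes, which are not independent replicates). The correlations were -0.13 and -0.05 in delayed combination 1 and 3 and -0.27 to 0.16 in elesclomol. The 14 macrophage or monocyte markers summed to 79.5 CPM in delayed combination 2, against 18.7 and 23.6 CPM in delayed combination 1 and 3. In elesclomol 1, 2 and 3 they summed to 81.05, 18.5 and 39.3 CPM.

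Few single genes separated the groups. Of 13085 genes tested with edgeR's quasi-likelihood test, 7 passed a Benjamini-Hochberg adjusted p of 0.05, which is 0.0535% of them. The delayed combination was higher for 1 gene (0.00764%) and lower for 6 (0.0459%). At an unadjusted p under 0.05 there were 1297 genes (9.91%), 620 higher (4.74%) and 677 lower (5.17%). The 3 delayed combination libraries did not overlap the 3 elesclomol libraries for 2116 genes (16.2%), with 1039 higher (7.94%) and 1077 lower (8.23%). The median log2 change of all genes was -0.01, with 48.1% of them above 0 and 51.9% below.

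**Figure D1:**
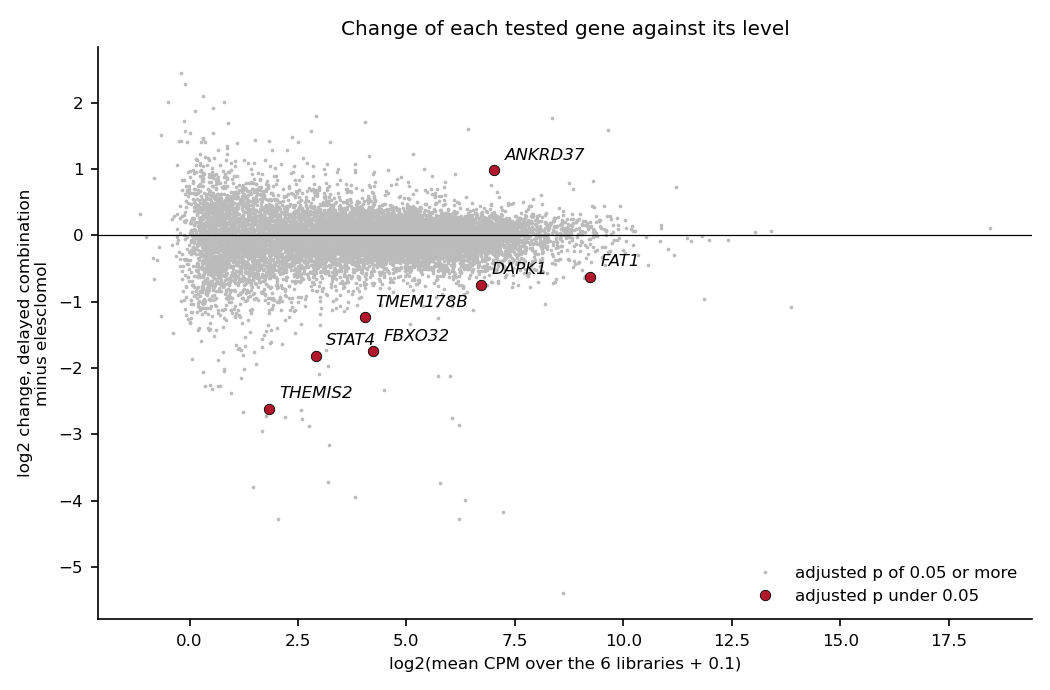
Each point is one of 13085 tested genes, with its log2(mean CPM over the 6 libraries + 0.1) across and its log2 change, delayed combination minus elesclomol, up. The 7 genes past the adjusted p of 0.05 are filled and named: ANKRD37 lies above 0 (0.98), and the other 6 lie below it (-0.63 to -2.61), while other genes with larger changes did not pass.

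FBXO32 (ENSG00000156804, chromosome 8) had the smallest p. It encodes atrogin-1, the substrate-binding subunit of a ubiquitin ligase, and is a FOXO target best known from muscle wasting. It had 8.28, 8.93 and 8.27 CPM in the delayed combination libraries, against 35.5, 25.6 and 25.0 CPM in the elesclomol libraries. The highest delayed combination library lay below the lowest elesclomol library. FBXO32 fell by 1.75 ± 0.23 on the log2 scale (SE, 3.37-fold lower, edgeR adjusted p = 0.0161). Elesclomol stood alone for this gene: simultaneous combination averaged 12.1 ± 1.99 CPM, bortezomib 14.1 ± 3.55 CPM and PBS 9.31 ± 3.48 CPM (SD, n = 3 each). 

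DAPK1 (ENSG00000196730, chromosome 9), a calmodulin-regulated kinase linked to cell death and autophagy, had 82.4, 72.4 and 82.4 CPM in the delayed combination libraries. In the elesclomol libraries it had 137, 133 and 129 CPM, and the groups did not overlap. DAPK1 fell by 0.75 ± 0.12 (edgeR adjusted p = 0.04). FAT1 (ENSG00000083857, chromosome 4), a very large cadherin of the cell surface, was the most abundant of the 7. It had 489, 445 and 491 CPM in the delayed combination libraries, against 726, 756 and 719 CPM in the elesclomol libraries, whose values were all higher. FAT1 fell by 0.63 ± 0.09 (1.54-fold lower, edgeR adjusted p = 0.04). FAT1 is a long transcript, and after a correction for GC content and length its change was -0.35 with an edgeR adjusted p of 0.484 (1.38e-07 to 1 over the alternatives). The same correction ended the calls of DAPK1 (-0.68) and of TMEM178B, described next (-1.03), so that 4 of the 7 passed under it.

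STAT4 (ENSG00000138378, chromosome 2), the transcription factor that carries interleukin-12 and type I interferon signals in lymphocytes, had 4.27, 2.46 and 3.08 CPM in the delayed combination libraries and 10.2, 12.9 and 11.6 CPM in the elesclomol libraries. STAT4 fell by 1.81 ± 0.29 (edgeR adjusted p = 0.04), and all elesclomol libraries were higher. TMEM178B (ENSG00000261115, chromosome 7), which encodes a transmembrane protein, had 13.4, 7.29 and 8.43 CPM in the delayed combination libraries and 23.8, 21.0 and 24.1 CPM in the elesclomol libraries. TMEM178B fell by 1.24 ± 0.21 (edgeR adjusted p = 0.0411). It differed from FBXO32 in that its PBS level, 22.1 ± 3.25 CPM, was near that of elesclomol. THEMIS2 (ENSG00000130775, chromosome 1), a signalling adaptor of B cells and macrophages, is named because so few genes passed, although its level is low. It had 14, 7 and 13 counts (1.17, 0.64 and 1.05 CPM) in the delayed combination libraries, against 33, 40 and 59 counts (5.03, 5.599 and 7.18 CPM) in the elesclomol libraries. THEMIS2 fell by 2.61 ± 0.43 (edgeR adjusted p = 0.0411), with no overlap.

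ANKRD37 (ENSG00000186352, chromosome 4) was the 1 gene that rose. It encodes a small ankyrin-repeat protein and is a known target of the hypoxia-inducible factor HIF-1. It had 131, 206 and 181 CPM in the delayed combination libraries and 87.0, 80.9 and 94.5 CPM in the elesclomol libraries, with no overlap. The log2 change was 0.98 ± 0.15 (1.97-fold, edgeR adjusted p = 0.04). ANKRD37 averaged 148 ± 13.0 CPM in simultaneous combination, 107 ± 17.7 CPM in bortezomib and 128 ± 2.14 CPM in PBS (SD, n = 3 each). HIF-1 binds elements built on the letters ACGTG. The 250 bases before its start in RefSeq (GRCh38.p14, plus strand, chr4:185396591-185396840) are shown because they hold this motif. Capitals mark matches to ACGTG on either strand, which fall 162, 161 and 143 bases before the start, and the first 2 overlap as a palindrome.
ANKRD37: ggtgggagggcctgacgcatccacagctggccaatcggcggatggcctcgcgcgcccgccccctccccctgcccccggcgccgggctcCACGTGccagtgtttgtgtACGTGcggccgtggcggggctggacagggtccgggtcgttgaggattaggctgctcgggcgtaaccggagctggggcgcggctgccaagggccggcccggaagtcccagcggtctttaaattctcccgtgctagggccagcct
The motif is common: 18.5% of 35116 RefSeq promoters hold it in the same window. Counted by gene, 21.7% of 27305 genes hold it in any promoter, as did 10 of the 16 genes of the hypoxia list with a promoter in that table (62.5%). A match is a description of the sequence and no evidence of binding.

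**Figure D2:**
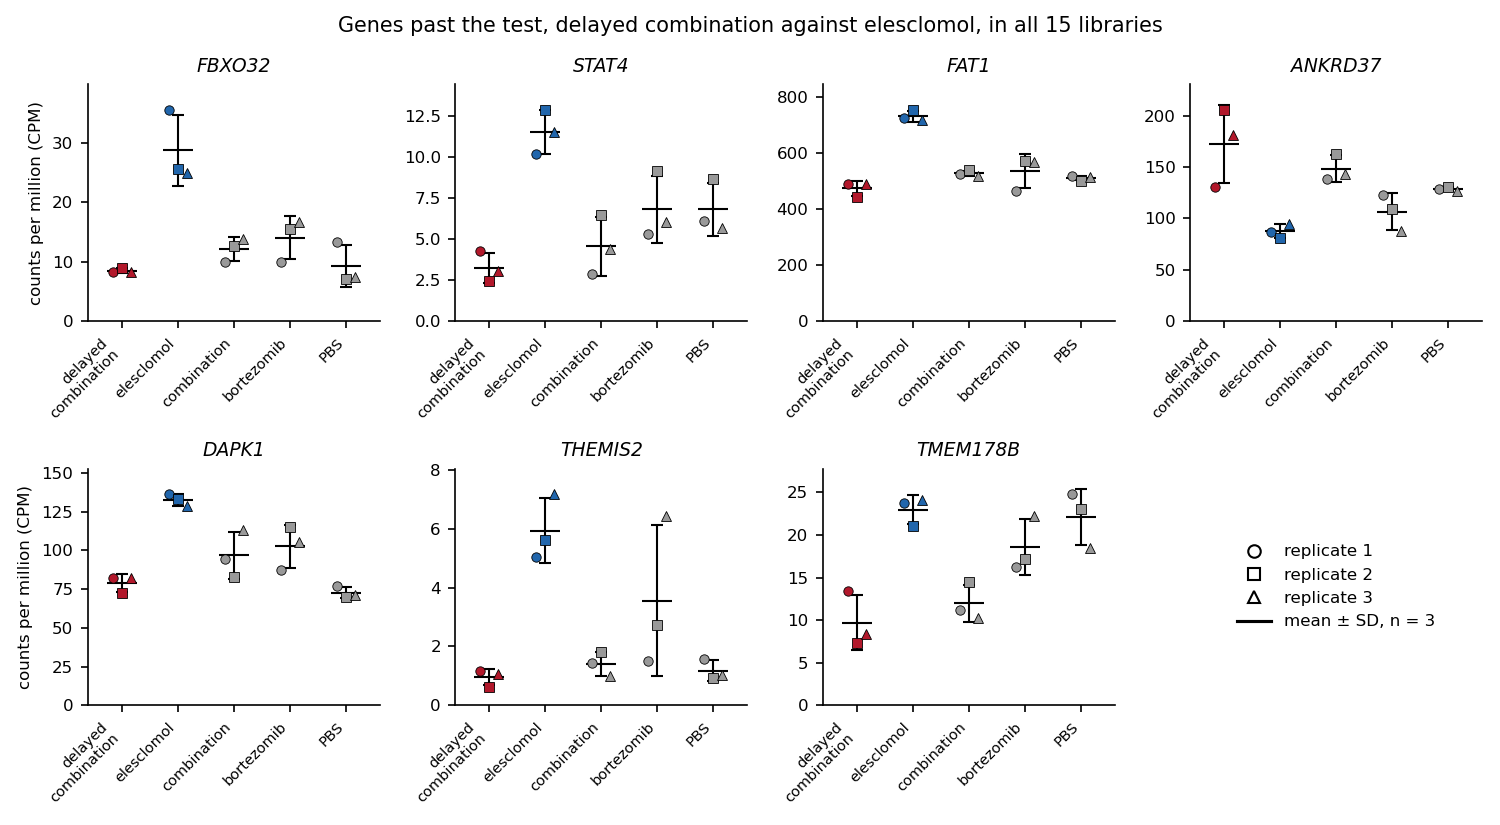
CPM of the 7 genes past the test in each of the 15 libraries, by group, with points for replicates 1 to 3 and bars for mean ± SD (n = 3). The delayed combination libraries (red) lie apart from the elesclomol libraries (blue) in every panel, and for FBXO32, FAT1, STAT4 and DAPK1 all 12 other libraries lie below the 3 elesclomol libraries.

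For 4 of the 7 genes, FBXO32, FAT1, STAT4 and DAPK1, all 12 libraries of the other groups lay below the lowest elesclomol library. Elesclomol stood above the other 12 libraries in this way for 62 of the tested genes (0.474%) and below them for 61 (0.466%). The 7 genes were called on the elesclomol and delayed combination libraries, which are part of this count, so it is a description only. Simultaneous combination minus elesclomol gave the same signs for all 7, from -2.07 ± 0.44 for THEMIS2 to 0.76 ± 0.15 for ANKRD37. It shares the elesclomol libraries, and 0 genes passed in it by edgeR (1597 at an unadjusted p under 0.05). Delayed minus simultaneous combination, the comparison without the elesclomol libraries, gave -0.51 ± 0.24 for FBXO32, -0.29 ± 0.12 for DAPK1 and 0.22 ± 0.15 for ANKRD37 (edgeR adjusted p = 1 for each). The number of calls depended on single libraries. Without delayed combination 2, delayed combination 3, elesclomol 1 or elesclomol 2, edgeR called 0 genes (801, 882, 886 and 1046 at an unadjusted p under 0.05). Without elesclomol 3 it called 1 higher and 1 lower, of which only FBXO32 is among the 7, and without delayed combination 1 it called 66 higher and 56 lower, all 7 included. With only the 6 libraries compared in the fit, FBXO32 alone of the 7 passed. DESeq2 called 19 higher and 39 lower and limma voom 18 and 45, in both cases with all 7 included.

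Elesclomol against PBS had 9 genes past the test (0.0688%), and all 9 had the opposite sign in delayed combination minus elesclomol. Because they were chosen on the elesclomol libraries, this is a description only. FBXO32 and DAPK1 are 2 of the 9. Among those higher here, DUSP2, a nuclear phosphatase that switches off ERK, had 9.29, 13.6 and 10.9 CPM in the delayed combination libraries and 6.25, 5.32 and 5.24 CPM in the elesclomol libraries. PHLDA1, which growth factors induce, had 65.0, 66.1 and 62.3 CPM in the delayed combination libraries against 41.0, 43.8 and 34.5 CPM in the elesclomol libraries. The class IIa histone deacetylase gene HDAC9 had 72.1, 62.8 and 82.0 CPM in the delayed combination libraries against 44.0, 46.5 and 40.3 CPM in the elesclomol libraries. None of the 3 overlapped between groups, and none passed (log2 changes 1.01 ± 0.25, 0.70 ± 0.17 and 0.73 ± 0.16, edgeR adjusted p = 0.191, 0.165 and 0.141). FRMD6 lay above 0 as well (0.59 ± 0.16). NXPE3 (-0.40 ± 0.09), F2R, the thrombin receptor (-0.50 ± 0.13), and BASP1 (-0.38 ± 0.13) lay below 0. FRMD6, NXPE3, F2R and BASP1 did not overlap either. Over all genes 16.2% did not overlap. These genes were chosen on the elesclomol libraries, so their lack of overlap is a description only.

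Among 17 genes of RAS-ERK output and feedback, 15 were tested and 0 passed. Of these, 11 lay above 0 and 4 below, with a median of 0.38 against -0.01 over all genes. The libraries did not overlap, with the delayed combination higher, for 7 of the 15, where 7.94% of all genes did, and with it lower for 1 (8.23% of all genes). That 1 was IER3, an early gene also on the next list (-0.92 ± 0.34), and DUSP1, a phosphatase of stress kinases, was the lowest of the list (-1.24 ± 0.52). DUSP6, the cytoplasmic phosphatase that is the direct feedback inhibitor of ERK, had 51.2, 64.2 and 54.3 CPM in the delayed combination libraries and 25.9, 26.3 and 32.6 CPM in the elesclomol libraries (1.00 ± 0.21, edgeR adjusted p = 0.128). SPRED1, which inhibits RAS by recruiting neurofibromin, had 57.6, 90.4 and 77.4 CPM in the delayed combination libraries and 41.7, 43.7 and 44.1 CPM in the elesclomol libraries (0.80 ± 0.15, edgeR adjusted p = 0.066). Both genes were higher in each delayed combination library than in any elesclomol library. The list depended on delayed combination 2, without which 9 of 15 lay above 0 and the median was 0.18, and on elesclomol 3, without which 9 of 15 lay above 0 (median 0.25). Without elesclomol 1 the median was 0.55.

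Immediate early genes, whose transcription begins minutes after a stimulus, lay on the other side. Of 18 tested, 15 lay below 0 and 3 above (median -0.49), and 0 passed. JUN had 79.9, 54.8 and 93.1 CPM in the delayed combination libraries and 140, 173 and 66.4 CPM in the elesclomol libraries. FOS had 10.9, 15.3 and 30.9 CPM in the delayed combination libraries and 63.8, 72.9 and 7.67 CPM in the elesclomol libraries. For both genes the groups overlapped, because elesclomol 3 lay far below elesclomol 1 and 2. The changes were -0.74 ± 0.42 for JUN and -1.33 ± 0.75 for FOS (edgeR adjusted p = 0.575 for both). NR4A2, an orphan nuclear receptor, had 3.26, 2.83 and 2.51 CPM in the delayed combination libraries and 5.49, 9.80 and 4.99 CPM in the elesclomol libraries (-1.23 ± 0.40, edgeR adjusted p = 0.322). ZFP36, whose protein destabilises AU-rich messenger RNAs, did not overlap either (-0.50 ± 0.18, edgeR adjusted p = 0.37). In all 4 of the 18 did not overlap with the delayed combination lower (8.23% of all genes), and 2 with it higher (7.94% of all genes). The 2 were the early growth response factors EGR2 (1.58 ± 0.71) and EGR3 (0.86 ± 0.76), chosen after their values were seen, both at low levels. The list median was -0.69 without elesclomol 3.

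Of 15 tested FOXO genes, 1 passed (FBXO32), 12 lay below 0 and 3 above, with a median of -0.36. The libraries did not overlap for 4 lower and 1 higher gene of the 15 (8.23% and 7.94% of all genes). FOXO3 itself, chosen here after its values were seen, had 55.2, 52.7 and 53.9 CPM in the delayed combination libraries and 70.5, 65.7 and 71.1 CPM in the elesclomol libraries (-0.36 ± 0.09, edgeR adjusted p = 0.203). The stress sensor SESN1, a target of both FOXO and p53, lay above 0 (0.53 ± 0.16, edgeR adjusted p = 0.276). Among BH3-only genes, whose proteins start apoptosis by binding BCL2 relatives, 0 of 7 passed, and members lay on both sides (4 above 0, 3 below). BCL2L11, which encodes BIM and is regulated by FOXO and ERK, had 198, 168 and 216 CPM in the delayed combination libraries, against 432, 404 and 350 CPM in the elesclomol libraries. Every elesclomol library was higher, but the change of -1.03 ± 0.30 did not pass (edgeR adjusted p = 0.299), with PBS at 153 ± 29.4 CPM and bortezomib at 338 ± 151 CPM. BMF lay below 0 (-0.49 ± 0.20) and BID above it (0.37 ± 0.11), with no overlap for either and edgeR adjusted p of 0.452 and 0.274.

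In the hypoxia list 15 genes were tested, of which ANKRD37 passed. Members lay above 0 in 10 cases and below in 5, and the median of 0.08 was within 0.2 of 0, as for 35 of the 45 pathway lists. Libraries did not overlap for 5 of the 15, all with the delayed combination higher (7.94% of all genes). Besides ANKRD37 these included VEGFA, the angiogenic growth factor, with 20.7, 25.1 and 23.0 CPM in the delayed combination libraries and 15.7, 16.8 and 14.97 CPM in the elesclomol libraries (0.53 ± 0.16, edgeR adjusted p = 0.274). The peptide hormone gene ADM (0.49 ± 0.24, edgeR adjusted p = 0.524) and MXI1, a MYC antagonist (0.41 ± 0.11, edgeR adjusted p = 0.243), were among the others. So was EGLN1, an oxygen sensor that marks HIF for degradation (0.20 ± 0.12). VEGFA, ADM, MXI1 and EGLN1 were chosen after their values were seen. The lowest hypoxia gene lay at -0.30.

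Interferon-stimulated genes, which serve antiviral defence, were lower by sign in nearly all members. Of 20 tested 0 passed, 19 lay below 0 and 1 above, with a median of -0.31, and 8 did not overlap, all with the delayed combination lower (8.23% of all genes). IFIT3, which binds foreign RNA complexes, had 3.26, 3.19 and 3.24 CPM in the delayed combination libraries and 6.70, 9.10 and 5.60 CPM in the elesclomol libraries (-1.13 ± 0.25, edgeR adjusted p = 0.137). IFI44L had 0.84, 0.73 and 0.32 CPM in the delayed combination libraries and 1.37, 3.92 and 2.56 CPM in the elesclomol libraries (-2.04 ± 0.46, edgeR adjusted p = 0.141). MX1, an antiviral GTPase, overlapped between groups at 29.5, 38.4 and 21.9 CPM in the delayed combination libraries and 34.3, 57.0 and 54.3 CPM in the elesclomol libraries. The list median ranged from -0.58 without delayed combination 2 to -0.22 without elesclomol 3. MHC class I presentation genes, also under interferon control, had a median of -0.09, with 10 of 14 below 0 and 0 with no overlap, but without elesclomol 3 the median was 0.05 with 8 of 14 above 0. NF-kappaB targets had a median of 0.13 (12 of 17 above 0), or 0.05 to 0.16 with 1 library left out, although NFKBIZ, an inflammatory cofactor, lay below 0 (-0.73 ± 0.21, edgeR adjusted p = 0.267).

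**Figure D3:**
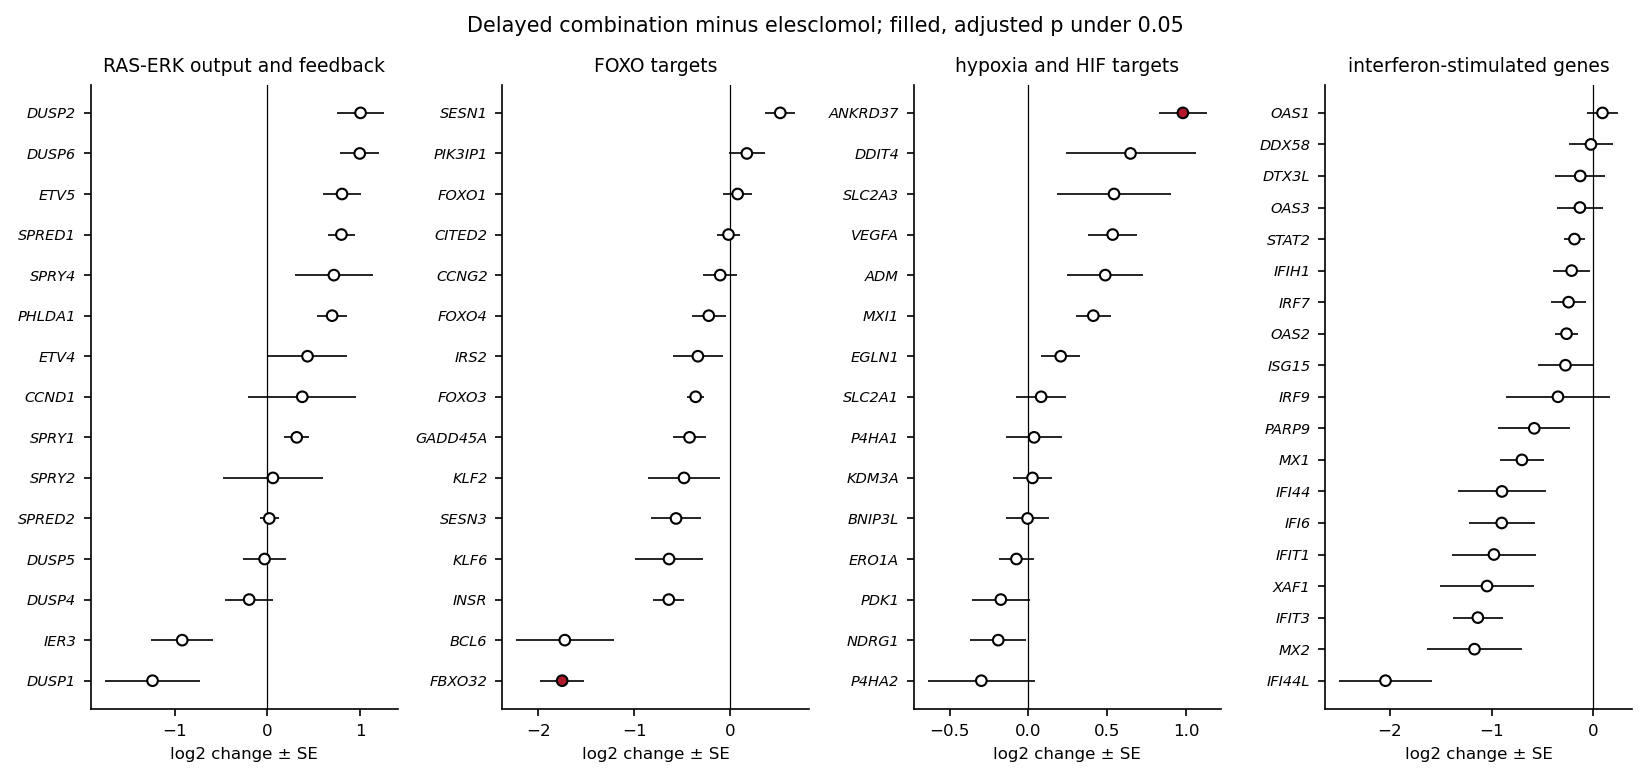
Log2 change ± SE (delayed combination minus elesclomol) of tested members of 4 gene lists (RAS-ERK, FOXO, hypoxia and interferon), in order of the change; filled points have an adjusted p under 0.05. FBXO32 at the bottom of the FOXO list (-1.75) and ANKRD37 at the top of the hypoxia list (0.98) are the only filled points, and all interferon-stimulated genes drawn except OAS1 lie left of 0.

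Genes of ribosomes and of the nuclear-encoded respiratory chain lay slightly above 0, with 0 past the test. Cytosolic ribosomal protein genes lay above 0 in 46 of 50 cases (median 0.18), and 16 did not overlap (7.94% of all genes). Mitochondrial ribosomal protein genes lay above 0 in 38 of 43 cases (median 0.13), with no overlap for 10 higher and 1 lower. Complex I genes lay above 0 in 32 of 38 (median 0.11), with no overlap for 6 higher and 1 lower. Genes of complexes III, IV and V did so in 33 of 35 (median 0.13), with no overlap for 13, all higher. Over all genes, 7.94% did not overlap with the delayed combination higher and 8.23% with it lower. NDUFC1, an accessory subunit of complex I, had 45.6, 45.3 and 45.2 CPM in the delayed combination libraries and 32.5, 34.9 and 34.2 CPM in the elesclomol libraries. Its replicates were tight and did not overlap, yet the change of 0.42 ± 0.08 did not pass (edgeR adjusted p = 0.066). The ATP synthase subunit ATP5ME lay at 0.35 ± 0.13 (edgeR adjusted p = 0.387). Of 13 protein genes of mitochondrial DNA 12 lay below 0 (median -0.21), with 0 that did not overlap. Without elesclomol 2 that median was 0.03, and without elesclomol 3 it was -0.42. MT-ND5, a core subunit of complex I, had 433, 453 and 423 CPM in the delayed combination libraries and 707, 808 and 370 CPM in the elesclomol libraries, of which elesclomol 3 was the lowest of all 6.

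Transcript length moved with these lists. With the tested genes cut by length into 5 equal bins, the bin of shortest transcripts (up to 1865 bases) had a median log2 change of 0.07, and the bin of longest (5818 bases and more) one of -0.13. The trend came from delayed combination 2, whose bin of longest transcripts lay at -0.10, and from elesclomol 1 and 2, where that bin lay at 0.111 and 0.105. Delayed combination 1 and 3 and elesclomol 3 showed little of it (0.0082, -0.0022 and 0.0029), and the part of length in the list results was not tested beyond the correction that follows. After correction for GC content and length, the cytosolic ribosomal median was 0.15, the mitochondrial ribosomal 0.10, complex I 0.10 and complexes III, IV and V 0.14. Splicing factors lay below 0 in 18 of 23 cases (median -0.25, or -0.18 after the correction), with SRSF5 at -0.34 ± 0.13 (edgeR adjusted p = 0.415). Replication-dependent histone genes lay below 0 in 14 of 15 (median -0.23, or -0.30 after it), and 8 did not overlap, all with the delayed combination lower (8.23% of all genes).

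**Figure D4:**
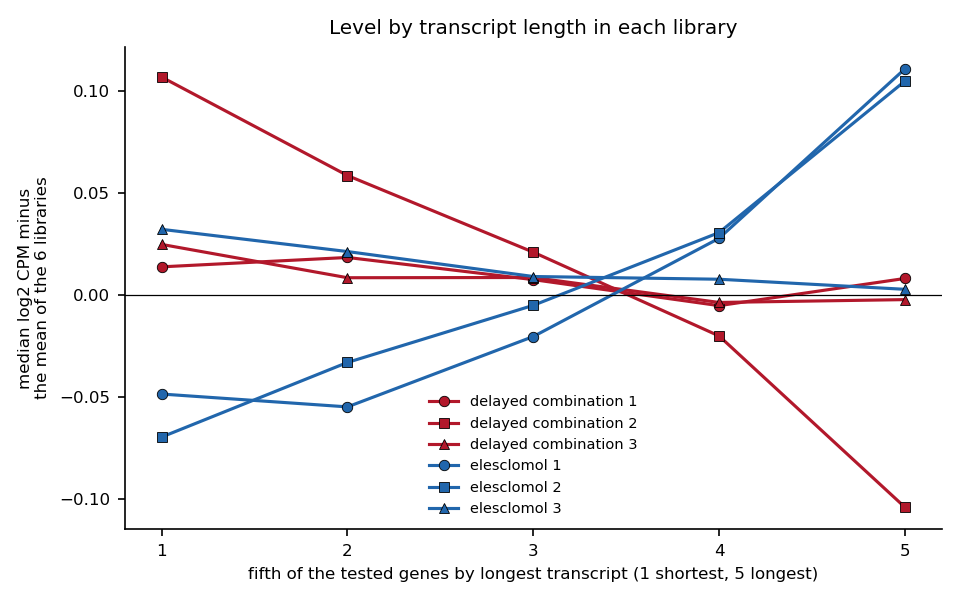
Median log2 CPM of the genes in each of 5 equal bins by longest transcript, relative to the mean of the 6 libraries, for each library. Delayed combination 2 runs from 0.11 in the shortest to -0.10 in the longest bin, elesclomol 1 and 2 run the other way to 0.111 and 0.105, and the other 3 libraries stay near 0.

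The pathways closest to the drugs differed little. Among 13 tested genes of the 20S proteasome core 0 passed and the median was 0.08, and among 18 of the 19S cap 0 passed and the median was 0.08. Without delayed combination 2 the medians were 0.02 and 0.01. PSMB5, the catalytic subunit that bortezomib binds, had 22.4, 32.6 and 25.7 CPM in the delayed combination libraries and 21.8, 19.7 and 27.4 CPM in the elesclomol libraries. The groups overlapped, and the 95% interval of its log2 change ran from -0.15 to 0.60. PSMA6 was the 20S gene with the largest change (-0.61 ± 0.23, edgeR adjusted p = 0.407). POMP, the chaperone of proteasome assembly, lay at 0.49 ± 0.16 (edgeR adjusted p = 0.331). The autophagy receptor SQSTM1 had an interval of -0.29 to 0.34. Among genes answering unfolded protein in the endoplasmic reticulum, 14 of 20 lay above 0 (median 0.09), and XBP1, its plasma cell regulator, had 2736, 2903 and 2753 CPM in the delayed combination libraries and 2646, 2996 and 2957 CPM in the elesclomol libraries (interval -0.26 to 0.19).

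In the ATF4 stress response 16 of 20 genes lay above 0 (median 0.15), with 0 past the test. ATF4 had 120, 119 and 113 CPM in the delayed combination libraries and 94.3, 102 and 110 CPM in the elesclomol libraries, which did not overlap, with an interval of -0.09 to 0.47. DDIT3, its apoptotic target, overlapped (interval -0.15 to 0.70), as did ATF3 (-1.24 to 0.30). SESN2 lay above 0 (0.84 ± 0.33) and the phosphatase subunit PPP1R15A below it (-0.63 ± 0.27), with edgeR adjusted p of 0.415 and 0.469. Heat shock genes had a median of 0.05, or -0.03 without delayed combination 2 and -0.01 without delayed combination 3. Abundant chaperones lay on both sides: HSPA8 had 816, 878 and 900 CPM in the delayed combination libraries and 534, 704 and 670 CPM in the elesclomol libraries, whereas HSP90AA1 had 64.0, 75.1 and 82.3 CPM in the delayed combination libraries and 116, 109 and 98.6 CPM in the elesclomol libraries. Neither overlapped and neither passed (0.44 ± 0.13 and -0.55 ± 0.15, edgeR adjusted p = 0.299 and 0.264). DNAJB1 (interval -0.33 to 1.30) and HSPA1B (interval -0.69 to 1.86) overlapped, and the HSPA1B value is uncertain, since HSPA1A is nearly the same in sequence.

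FDX1, the mitochondrial ferredoxin that reduces the copper carried by elesclomol, had 25.3, 25.0 and 27.2 CPM in the delayed combination libraries and 25.3, 25.3 and 21.8 CPM in the elesclomol libraries. The interval of its log2 change was -0.16 to 0.35. Of 13 tested genes of FDX1 and protein lipoylation 0 passed (median 0.08, 10 above 0), and of 13 of copper and zinc handling 0 passed (median 0.02, 8 above 0). MTF1, the metal-responsive transcription factor in both lists, had 17.9, 16.7 and 18.1 CPM in the delayed combination libraries and 24.1, 20.7 and 20.9 CPM in the elesclomol libraries (-0.32 ± 0.13, edgeR adjusted p = 0.444), with no overlap. The metallothionein genes, including MT2A, were too low to test. NRF2 targets had a median of 0.15 (14 of 17 above 0), or 0.05 without delayed combination 2, and HMOX1 overlapped (interval -0.77 to 1.41).

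Genes of cholesterol synthesis lay above 0 in 18 of 22 cases (median 0.17) with 0 past the test. HSD17B7, an enzyme late in the pathway, had 18.8, 22.1 and 27.7 CPM in the delayed combination libraries and 14.9, 15.1 and 14.0 CPM in the elesclomol libraries. The groups did not overlap, and the change was 0.64 ± 0.17 (edgeR adjusted p = 0.243). The list's level was highest in delayed combination 3, and its median was 0.0016 without that library.

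Of 14 tested plasma cell and myeloma transcription factors 0 passed, and 11 lay below 0 and 3 above. The median was -0.10, or -0.02 after the correction for GC content and length. The libraries did not overlap for 3 lower and 1 higher gene (8.23% and 7.94% of all genes). IRF4, on which myeloma cells depend, had 952, 904 and 857 CPM in the delayed combination libraries and 730, 715 and 771 CPM in the elesclomol libraries (0.29 ± 0.11, edgeR adjusted p = 0.398). POU2AF1, a B cell coactivator, went the other way, with 157, 146 and 142 CPM in the delayed combination libraries and 181, 168 and 202 CPM in the elesclomol libraries (-0.31 ± 0.10, edgeR adjusted p = 0.341). Neither overlapped between the groups. Genes of S phase had a median of 0.0037 (14 of 28 above 0), and those of G2 and mitosis one of 0.11 (19 of 26 above 0), or 0.01 without delayed combination 1, with the centromeric histone CENPA at 0.47 ± 0.21 (edgeR adjusted p = 0.484). The nuclear long noncoding RNA MALAT1 had 3055, 1993 and 2545 CPM in the delayed combination libraries and 6806, 5254 and 2685 CPM in the elesclomol libraries, and it overlapped between groups (-0.96 ± 0.48, edgeR adjusted p = 0.528). As with JUN, FOS and MT-ND5, elesclomol 3 lay near the delayed combination.

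**Figure D5:**
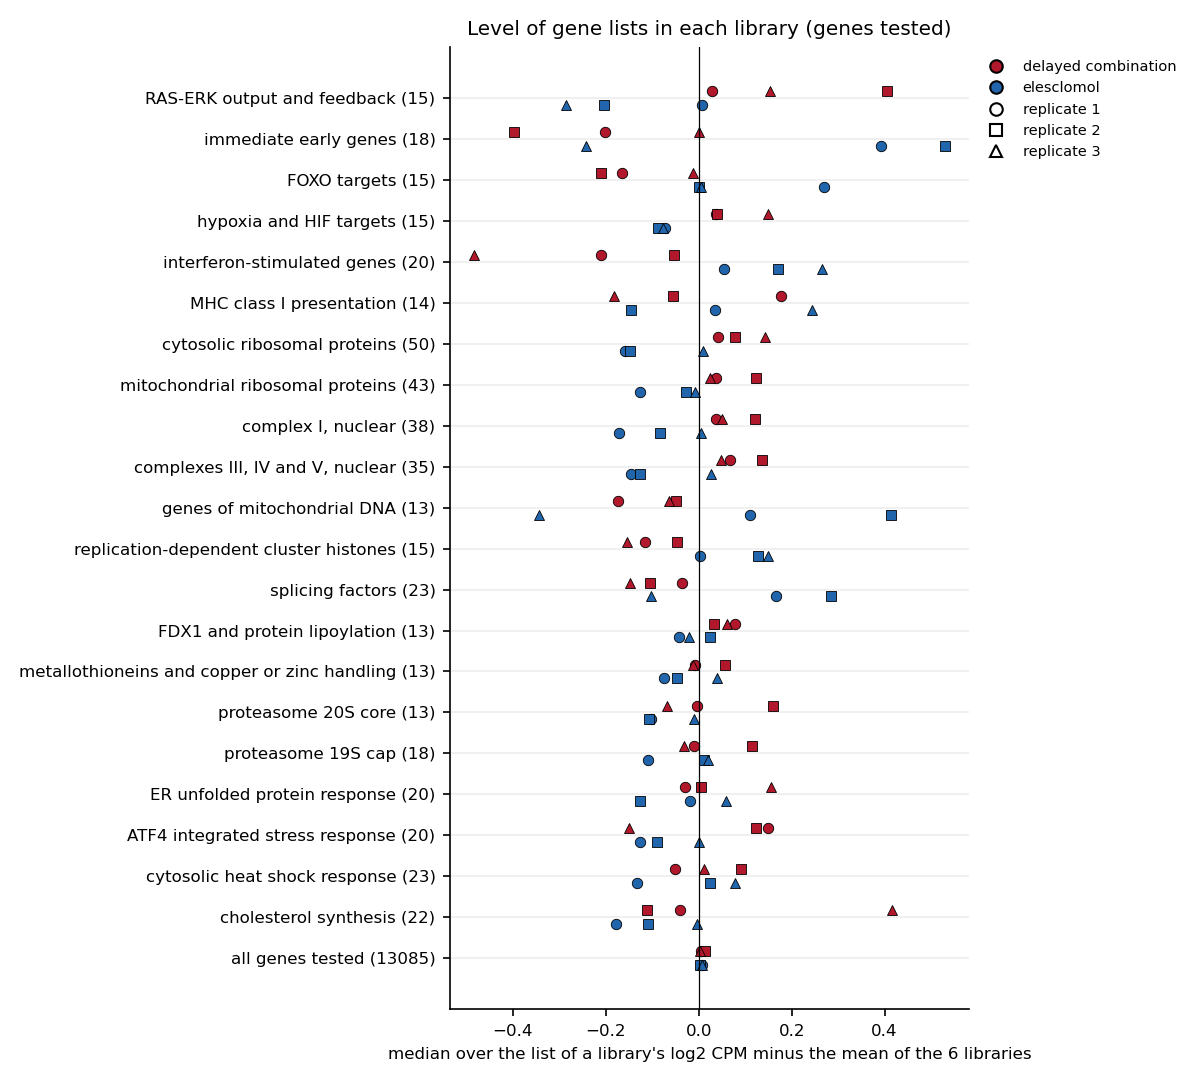
For 21 gene lists and all tested genes, the median over the list of a library's log2 CPM minus the mean of the 6 libraries; red, delayed combination, blue, elesclomol, with a symbol for each replicate and the number of tested genes in brackets. Interferon-stimulated genes lie at -0.48 to -0.05 in the delayed combination libraries and 0.05 to 0.27 in the elesclomol libraries, while immediate early genes overlap because elesclomol 3 lies at -0.24.

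Erythroid and granulocyte markers moved with elesclomol 1. The 5 tested erythroid genes all lay below 0 with a median of -2.74, or -0.62 without elesclomol 1. ALAS2, the first enzyme of heme synthesis in red cells, had 0.33, 0.27 and 0.49 CPM in the delayed combination libraries and 19.4, 1.96 and 1.46 CPM in the elesclomol libraries. It did not pass (-4.28 ± 1.18, edgeR adjusted p = 0.268). Of 8 tested granulocyte genes 7 lay below 0 (median -2.06, or -0.52 without elesclomol 1). The collagenase MMP8 had 0.84, 0.09 and 0.08 CPM in the delayed combination libraries and 10.1, 1.68 and 3.17 CPM in the elesclomol libraries (-3.79 ± 0.89, edgeR adjusted p = 0.165). Of 6 tested macrophage or monocyte genes 3 lay above 0 and 3 below (median 0.06). That median was 0.61 without elesclomol 1 and -0.55 without delayed combination 2. All 4 tested endothelial genes lay above 0 (median 0.65, or 0.19 to 1.11 with 1 library left out). Neither list had a gene past the test. Stromal markers went both ways. The collagen COL3A1 lay at 1.20 ± 0.53 and fibronectin, FN1, at -0.70 ± 0.23 (edgeR adjusted p = 0.492 and 0.338). With a covariate for the level of host markers, 5 of the 7 genes past the test still passed, and DAPK1 and TMEM178B, at -0.73 and -1.30, did not although their changes were of the same size. The part of marrow cells in the other results was not tested. FBXO32 was -1.57 ± 0.24 without elesclomol 1 and no longer passed (edgeR adjusted p = 0.1305, and 0.0121 to 0.1305 over the fits that leave out 1 library).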

How the data were processed

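RNA of mouse-borne tumours in marrow was analysed in 15 libraries, 6 of them for the comparison described. The submitters' processing notes name STAR 2.5.4b, featureCounts 1.6.1 and the build GRCh37. The deposited values are raw whole-number counts per gene, and the authors applied no normalization to them. Not given in the sources used here are the strand setting, the annotation release and the treatment of mouse reads. Symbols came from GENCODE 29, which named 52338 of 57773 identifiers; the 5435 others held 1.07% of the counts. Transcript length and GC content are from that annotation, and promoters from RefSeq.

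Genes were kept by filterByExpr (minimum count 10), and 13085 were tested in edgeR 4.0.16 (R 4.3.3) with TMM factors, robust quasi-likelihood dispersions and 5 group means over all 15 libraries. The threshold was a Benjamini-Hochberg adjusted p of 0.05. The biological coefficient of variation was 0.171. CPM are TMM-scaled, errors of log2 changes are SE, and intervals are 95%. DESeq2 1.42.0 and limma 3.58.1 were alternatives. The scripts were tested on simulated data. Replicates within the delayed combination and elesclomol groups correlated at 0.968 to 0.982, and none was a duplicate. Pairs across these groups correlated at 0.951 to 0.986, a range that spanned that of the replicates. Delayed combination 1 correlated more highly with elesclomol 3 (0.986) and elesclomol 2 (0.983) than with delayed combination 3 (0.982).

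The members and lists were chosen with earlier results of these data known. The 45 pathway and 8 marker lists hold 938 genes, 924 of them found by name. A gene is named if it passed with no overlap and its higher group averaged 3 log2 CPM or more. So is a gene that elesclomol against PBS called, or one on a short list of drug and stress genes. From each list come the members that passed, up to 4, or, where none passed, up to 3 with the smallest p. Exceptions are marked, and a few genes that the rule would name are not reported here. Gene lists are described by counts and medians beside those of all genes, without a test.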

Additional observations from a re-analysis of the deposited data

How the results depend on the processing

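All 7 genes past the test kept their direction under every alternative that gave them a value. Of the list medians described, some changed sign in part of 16 alternatives: macrophage or monocyte markers in 7, S phase in 6 and heat shock in 2. So did, in 1 each, those of BH3-only genes, MHC class I presentation, genes of mitochondrial DNA and granulocyte markers. For BH3-only and granulocyte genes this was where few members averaged 3 log2 CPM or more, at -0.13 and 0.28. The counts of calls moved more. DESeq2 called 19 genes higher and 39 lower, limma voom 18 and 45, and the test without a filter on low counts, over 35074 genes, 102 and 168. Among genes averaging 3 log2 CPM or more, 3 were higher. With a covariate for the level of host markers 4 were higher, and after correction for GC content and length 2 higher and 5 lower, with 4 of the 7 genes among them. A test against a change of 1.5-fold called 0 higher and 0 lower (145 genes at an unadjusted p under 0.05). With only the 6 libraries compared in the fit, 0 were higher and 1 lower. Leaving out 1 library gave 0 to 66 higher and 0 to 56 lower, with the upper ends without delayed combination 1. With the delayed combination libraries thinned to the elesclomol depth 5 of the 7 passed, and STAT4 and THEMIS2 did not, although their changes, -1.91 and -2.41, were about as large. The causes of these shifts were not tested.

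Between delayed combination and elesclomol the replicate numbers did not pair the samples: the deviations of same-numbered libraries correlated at -0.272, -0.405 and -0.169. Other pairs of groups were not tested in this way. In bortezomib and simultaneous combination, correlations with GC content were alike by number: 0.51 and 0.49 (replicate 1), -0.31 and -0.25 (replicate 2), 0.08 and 0.08 (replicate 3). In PBS they were -0.29, -0.35 and -0.33. Whether the numbers mark a batch was not tested beyond the block that follows. With the replicate number as a block, 1 gene was higher and 0 lower in the fit of all 15 libraries (1287 at an unadjusted p under 0.05), and 1 higher and 0 lower in the fit of the 6 libraries (778). None of the 7 genes passed in either.

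Depth limits low genes such as THEMIS2 and IFI44L, which had 7 to 14 and 4 to 10 counts in the delayed combination libraries. Intervals of the fit cover the spread between 3 libraries per group, and bortezomib, the start of elesclomol and library depth cannot be told apart here.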

Other observations

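A pair of genes outside the lists, chosen after their values were seen, had large changes that did not pass. ITGB8, the integrin subunit that helps release active TGF-beta, had 26.7, 11.9 and 20.8 CPM in the delayed combination libraries and 93.2, 105 and 61.8 CPM in the elesclomol libraries. All elesclomol libraries were higher, and the log2 change was -2.12 ± 0.51 (edgeR adjusted p = 0.207). NES, which encodes the intermediate filament nestin, had 35.1, 207 and 142 CPM in the delayed combination libraries and 55.8, 29.7 and 41.6 CPM in the elesclomol libraries. Delayed combination 1 lay within the elesclomol range, and the change was 1.597 ± 0.46 (edgeR adjusted p = 0.304).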
